A study of Polypedilum vanderplanki with 24 samples.

Results

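The genes described here are 3 Lea genes of the sleeping chironomid Polypedilum vanderplanki that fall outside gene numbers g16170 to g16203, the stretch of chromosome 4 taken as the Lea island. A gene was a member when its BLAST description held the capital letters LEA or the words late embryogenesis and its number was outside that stretch, and g17261 was included whatever its description. Of the 17782 genes in the deposited table, 9 had such a description and 7 of these lay in the stretch, which left g16205 and g16206. With g17261 there were 3 members.

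The label was checked against the table and held in part. g16205 (described as PvLEA5 protein) and g16206 (PvLEA6 protein) are next to the island rather than away from it. They follow its last gene, g16203, with only g16204 between, and they lie in a run of 5 neighbouring genes, g16204 to g16208, that are all on the study's list of 27 Lea genes. g17261 lies 4439.2 kb further along chromosome 4, at the end of a run of 7 listed Lea genes, g17255 to g17261. It has no BLAST description and no LEA domain, so its place among the Lea genes rests on the study's list. In all, 12 of the 27 listed genes are outside the stretch, and the 9 that are not members are given below as neighbours of the members.

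Pv11 is a cultured cell line of this midge that tolerates drying after incubation in concentrated trehalose. Cells of 4 lines were sequenced after 48 h in trehalose (T48) and before it (T0), as 3 libraries in each of 8 groups. The HSF1-rescue cells (Hsf1-/-; Hsf1-HaloTag/BlaR) carried Hsf1 together with HaloTag and the blasticidin resistance gene BlaR at the g7775 locus. The control cells (Hsf1-/-; HaloTag/BlaR) carried HaloTag and BlaR there without Hsf1. The Hsf1 knockout cells (Hsf1-/-) had neither insert, and the WT cells were unmodified Pv11. The first 3 lines share a cassette of AcGFP1 and a zeocin resistance gene in exon 1 of Hsf1, and each is 1 clone, so that the effect of a genotype and that of its clone cannot be told apart. The deposited values are mean TPM, a measure of transcript level that is corrected for gene length and scaled to the same total in every library, and each is the authors' mean of a group's 3 libraries. The spread between libraries is therefore not known here, no difference below was tested, and neighbours in any order of levels cannot be called different.

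LEA (late embryogenesis abundant) proteins were first described in maturing plant seeds and occur in several animals that survive drying. They are very hydrophilic, are largely disordered in water and are known to protect proteins and membranes during desiccation, in part by taking up a helical form as water is lost. HSF1 is the transcription factor of the heat shock response, which binds heat shock elements (HSEs), promoter sequences built of repeated nGAAn units in alternating orientation.

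In assembly Pv_5.2, g16205 is at chr4:8522842-8524683 on the minus strand and g16206 at chr4:8525638-8526615 on the same strand, 954 bp away. Their locus tags in the RefSeq gene table are PVAND_016210 and PVAND_016211. g17261 is at chr4:12965844-12966119 on the plus strand (PVAND_017268). All 3 spans are multiples of 3 and code for 613, 325 and 91 residues if read as 1 exon with a stop codon, so g17261 is by far the shortest. The deposited annotation gives g16205 6 segments of the LEA domain, from residue 174 to residue 521, and g16206 has 1, from residue 265 to residue 297. Across all genes, 3 carry this domain, and the remaining gene is in the island. Predicted disorder covers 56.9% of the residues of g16206 and 53.8% of those of g17261, while none is listed for g16205. A feature that the rule did not use joins all 3 members. Each is assigned to the same Gene3D structural superfamily, which only 32 genes of the table have (0.18%), 6 of the 15 listed Lea genes of the island and 2 of the 9 other listed genes outside it among them.

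Each member had at least 1 predicted HSE in the 1000 bp around its start site, beside 27.6% of all genes. The matches are shown because the comparisons below are between cells with and without HSF1. They are written 5′ to 3′ on the strand of the gene, with GAA and TTC, the core of an HSE unit on either strand, in capitals.
g17261, motif MA0771.1: TTCtcgttttTTC
g17261, motif MA0319.1: atgGAAcg
g16206, motif MA0486.1: gctctaGAAactgct
g16205, motif MA0319.1: atgGAAga
The match of g16206 starts 53 bp upstream of the centre of its search window, where the start site was placed, and its letters were found under this motif in no other gene. The 2 matches of g17261 start 188 and 63 bp upstream of the centre of its window. The match of g16205 starts 389 bp upstream and is the least particular of them, since 830 genes carry the same 8 letters as a match of this motif. The 8 letters of g17261 under this motif were found in 149 genes. The match of g16206 is 15 bp long, so its count cannot be set directly against those of 8 bp matches. MA0319.1, an 8 bp motif named HSF1 in the table, is not among the 4 motifs that the methods name. With those 4 alone, 2 of 3 members had a match, beside 19.1% of all genes, and at a match p-value under 1e-05 none had, beside 2.62%. The share of all genes with a match was 8.35% for MA0771.1, 6.81% for MA0486.1 and 10.5% for MA0319.1. All 9705 matches listed are on the strand of their gene, so the shares, and any absence of a match, refer to that strand only. A match is a likeness in letters and does not show that HSF1 binds there.

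Among the 9 neighbours of the members on the Lea list, 5 had a match, beside 27.6% of all genes. The pair of matches of g17261 recurs in g17259, 2 genes before g17261 in the same run.
g17259, motif MA0771.1: TTCtcgttttTTC
g17259, motif MA0319.1: atgGAAcg
The letters are the same as in g17261, and the starts of the 2 matches are 125 bp apart in g17261 and 124 bp apart in g17259. In g17259 the first match starts 53 bp upstream of the window's centre and the second 71 bp downstream of it, inside the gene model. The centre is at the start of the gene model in g17259 but 61 bp upstream of it in g17261, so these positions are not directly comparable. The 13 letters of the MA0771.1 match were found in 3 genes of the table. The remaining gene, g2545 on chromosome 1, was listed at 0 TPM in all 8 groups. g17258 and g17260, which alternate with these genes, also had similar matches.
g17258, motif MA0486.1: tctctaGAAattttt
g17260, motif MA0486.1: tgtctaGAAattttt
These start 218 bp (g17258) and 222 bp (g17260) upstream of the centre. g17260 had an MA0770.1 match within the same letters, and g17255, g17256 and g17257 had no match. Next to g16205 and g16206, g16204 had an MA0486.1 match that starts 56 bp upstream of its centre, g16207 had 2 MA0319.1 matches, and g16208 had none.
g16204, motif MA0486.1: gctctaGAAaatTTC
The first 10 letters of the matches of g16204 and g16206 are the same, and both matches lie close upstream of the start site.

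**Figure D1:**
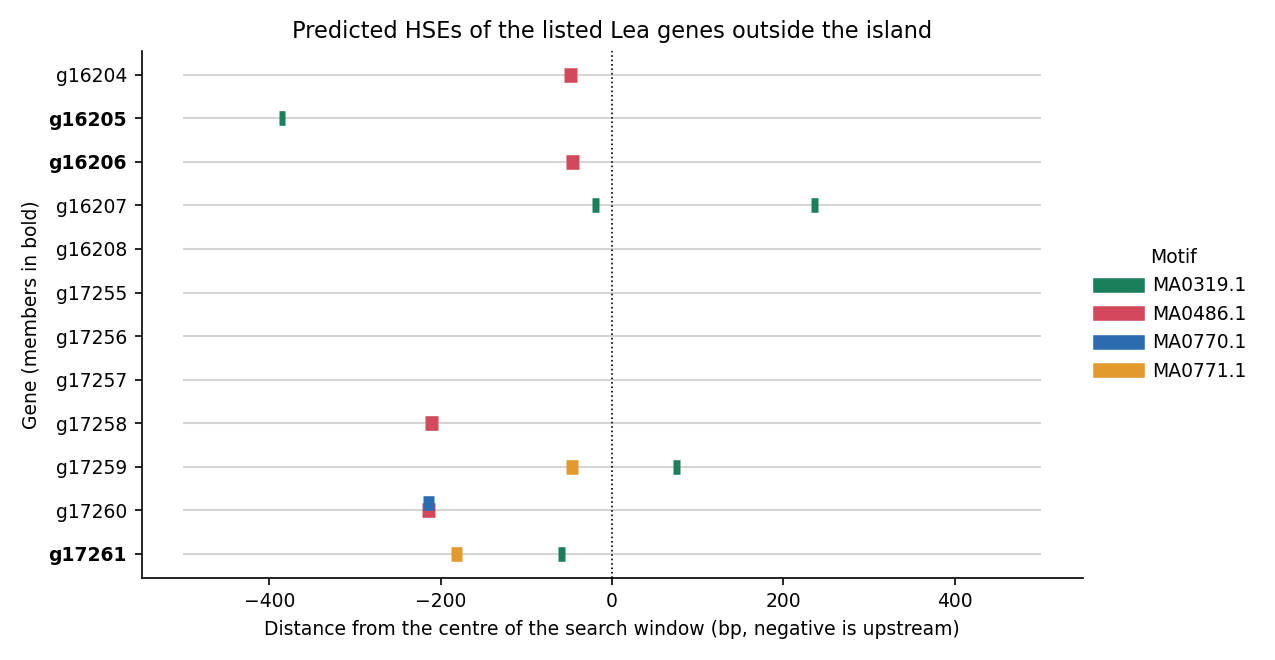
Predicted HSEs of the 12 listed Lea genes outside the island. The x axis is the distance in bp from the centre of the 1000 bp search window, negative upstream, each grey line is the window of 1 gene, members are in bold, and coloured blocks are matches (for g16207, 1 of its 2 windows is drawn). The same 2 motifs stand in the same order in g17259 and g17261, and g16204 and g16206 have 1 match each close upstream of the centre. The centre is at the start of the gene model in g17258, g17259 and g17260, and 61 to 134 bp upstream of it in the members.

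The targeted gene could not be used to check the lines. Hsf1 (g3611) had between 0.00892 and 0.307 TPM in the 8 groups, with 0.139 TPM in HSF1-rescue cells against 0.197 TPM in control cells at T48. The study reports HSF1 protein in HSF1-rescue cells and not in control cells, so these values were not taken as the level of Hsf1 transcript. The gene that carries the inserts, g7775, was among the most abundant, with 12040 TPM in HSF1-rescue cells against 37726 TPM in control cells at T48. Since TPM sums to a fixed total, a large change in abundant genes shifts all others. The median log2 ratio of all genes, taken on TPM + 1, was 0.53 for T48 over T0 in WT cells and -0.34 for HSF1-rescue over control cells at T48. Some values are therefore also given after median-of-ratios scaling, which sets the groups to a common median ratio.

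g17261 differed between groups far more than the other members. It had 4193 TPM in HSF1-rescue cells at T48 and 33.98 TPM in the same cells at T0. In control cells, which lack HSF1, it had 9.16 TPM at T48 and 1.22 TPM at T0. In Hsf1 knockout cells it had 20.28 TPM at T48 and 1.57 TPM at T0, and in WT cells 495.4 TPM at T48 and 3.65 TPM at T0. The order was thus HSF1-rescue and WT cells at T48, HSF1-rescue cells at T0, both lines without HSF1 at T48, and the other 3 groups at T0. The lines with HSF1 at T48 stood well apart from all others. Among all genes of the table g17261 held place 37 in HSF1-rescue cells at T48, place 268 in WT cells, place 4213 in Hsf1 knockout cells and place 5878 in control cells. A level near 1 TPM in a gene of 276 bp rests on few reads, and how many is not known here.

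g16205 was abundant in every group. It had 14485 TPM in HSF1-rescue cells at T48 and 5442 TPM at T0, and 7516 TPM in control cells at T48 and 3015 TPM at T0. In Hsf1 knockout cells it had 7744 TPM at T48 and 2778 TPM at T0, and in WT cells 11834 TPM at T48 and 5216 TPM at T0. At each time the lines with HSF1 were above those without it. All T48 groups were above all T0 groups in TPM, but not after scaling, when WT cells at T0 (6702) were above Hsf1 knockout (6398) and control cells (6134) at T48. It held place 6 among all genes in HSF1-rescue and in WT cells at T48, and place 8 in control and in Hsf1 knockout cells.

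g16206 was lower than g16205 in every group. It had 9626 TPM in HSF1-rescue cells at T48 and 4640 TPM at T0, and 3827 TPM in control cells at T48 and 2029 TPM at T0. In Hsf1 knockout cells it had 3821 TPM at T48 and 2163 TPM at T0, and in WT cells 8476 TPM at T48 and 3493 TPM at T0. In TPM, HSF1-rescue cells at T0 were above both lines without HSF1 at T48, and after scaling WT cells at T0 were as well. At each time the lines with HSF1 were again above those without it. Over the 8 group means the log2(TPM + 1) values of g16205 and g16206 had a Pearson's r of 0.95, a description of 8 means that share 4 lines. Together the 3 members made up 2.83% of all TPM in HSF1-rescue cells at T48 against 1.14% in control cells, and 1.16% in Hsf1 knockout cells against 2.08% in WT cells.

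**Figure D2:**
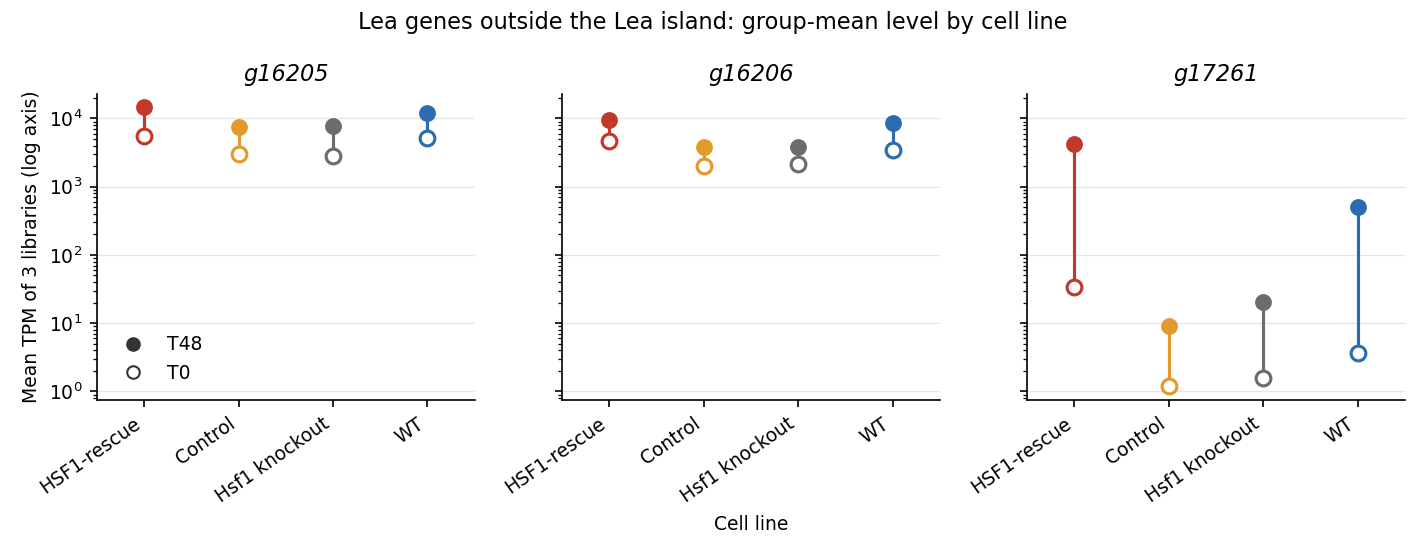
Mean TPM of g16205, g16206 and g17261 by cell line, on a log axis shared by the 3 panels. Filled points are T48 and open points T0, each the authors' mean of 3 libraries. g16205 and g16206 stay between 2029 and 14485 TPM, while g17261 runs between 1.22 and 4193 TPM.

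Trehalose was the first comparison, which asks how each line responded to 48 h of the treatment. The limit of 2-fold was a difference of 1 or more in log2(TPM + 1), over genes that reached 1 TPM in at least 1 of the groups set against each other. In HSF1-rescue cells all 3 members were at least 2-fold higher at T48, beside 11.5% of all genes. In control cells 2 members were (24.5% of all genes), in Hsf1 knockout cells 2 (22.7%) and in WT cells 3 (25.7%). g16206 was the member short of 2-fold in both lines without HSF1, at 1.89-fold in control cells and 1.77-fold in Hsf1 knockout cells.

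The size of the response set g17261 apart from the other members. Its level at T48 over that at T0 was 123.4-fold in HSF1-rescue cells, 7.53-fold in control cells, 12.92-fold in Hsf1 knockout cells and 135.7-fold in WT cells. On the log2(TPM + 1) scale these are 6.91, 2.20, 3.05 and 6.74. It ranked 4th of 8162 genes in HSF1-rescue cells and 3rd of 8522 in WT cells, against 364th of 8330 in control cells and 102nd of 8337 in Hsf1 knockout cells. The response of g17261 was therefore large in both lines with HSF1, and it was still among the higher ones in the lines without it, from a very low level. It was not particular to g17261, since g17259 of the same run was 129.0-fold higher in HSF1-rescue and 138.6-fold higher in WT cells. On the log2(TPM + 1) scale these are 6.82 and 6.06. g16205, in contrast, was 2.66-fold higher at T48 in HSF1-rescue cells, 2.49-fold in control cells, 2.79-fold in Hsf1 knockout cells and 2.27-fold in WT cells. g16206 was 2.07-fold higher in HSF1-rescue cells and 2.43-fold higher in WT cells. After scaling, the log2 ratios of g16205 and g16206 in WT cells were 0.60 and 0.69, that of g16205 in control cells was 0.94 and that of g16206 in HSF1-rescue cells 0.97, all short of 2-fold.

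The responses were set against each other as differences of log2 ratios, with no test. For g17261 the response of HSF1-rescue cells was above that of control cells by 4.71, place 11 of 8606 genes, where the median of all genes was -0.23. The response of Hsf1 knockout cells minus that of WT cells was -3.69, the fifth lowest of 8778 genes (median -0.22). The responses of HSF1-rescue and WT cells differed by 0.17. For g16205 and g16206 the difference between HSF1-rescue and control cells was 0.10 and 0.14, and that between Hsf1 knockout and WT cells was 0.30 and -0.46. Measured this way, the responses of g17261 were much further apart between lines with and without HSF1 than those of the other members. Its run shared this for HSF1-rescue minus control cells. There g17256, g17257 and g17258 held places 4, 7 and 9, though they were under 1 TPM in control cells. g17259, g17255 and g17260 held places 12, 15 and 20, with g17260 at 0 TPM in control cells. For Hsf1 knockout minus WT cells, g17261 was the lowest of its run. The others ran between -3.08 for g17259 and -0.41 for g17256, which was under 1 TPM in both lines. The difference of g17260 was -1.115, place 1054 from the lowest.

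The second comparison, HSF1-rescue against control cells, asks what adding Hsf1 back did in a background that is otherwise the same by design. At T0, 2 of 3 members were at least 2-fold higher in HSF1-rescue cells, beside 4.57% of all genes, and at T48 again 2 of 3, beside 5.83%. g17261 was 27.92-fold higher at T0 and 457.6-fold higher at T48, with log2 ratios of 3.98 and 8.69. At T48 this log2 ratio was the highest of 8454 genes. That rank depends on the pseudocount, since g17255 of the same run had a larger plain fold, at 572.1. g16206 was 2.29-fold higher at T0 and 2.52-fold higher at T48. g16205 was 1.81-fold and 1.93-fold higher, and its log2 ratio of 0.95 at T48 became 1.31 after scaling. Both were above over 93% of all genes at each time, although their ratios were small beside that of g17261.

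The third comparison, Hsf1 knockout against WT cells, asks how cells without HSF1, which also carry the cassette and went through selection as 1 clone, differed from unmodified cells. At T0 none of the 3 members was at least 2-fold lower in Hsf1 knockout cells, beside 5.59% of all genes. The log2 ratios at T0 were -0.86 for g17261, -0.91 for g16205 and -0.69 for g16206, all below the median of all genes (0.29), and after scaling all 3 were past 2-fold lower, with -1.12 for g17261 and -1.22 for g16205. At T48, 2 of 3 were at least 2-fold lower, beside 4.84%. g17261 had the lowest log2 ratio of 8596 genes, -4.54, with a level in Hsf1 knockout cells of 0.041 times that in WT cells. This place also depends on the pseudocount, since g17255 and g17258 of the same run had lower plain folds, at 0.035 and 0.033. Of these, g17258 was under 1 TPM in Hsf1 knockout cells. The log2 ratio of g16206 was -1.15, place 302 from the lowest, and that of g16205 was -0.61. Of the 8245 genes above the minimum in both comparisons at T48, 118 were at least 2-fold higher in HSF1-rescue than in control cells and at least 2-fold lower in Hsf1 knockout than in WT cells. g17261 and g16206 were among them, with 5 other listed Lea genes outside the island. Of those 5, g17257, g17258 and g17260 reached the minimum in each comparison only in the line with HSF1, where they are higher.

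**Figure D3:**
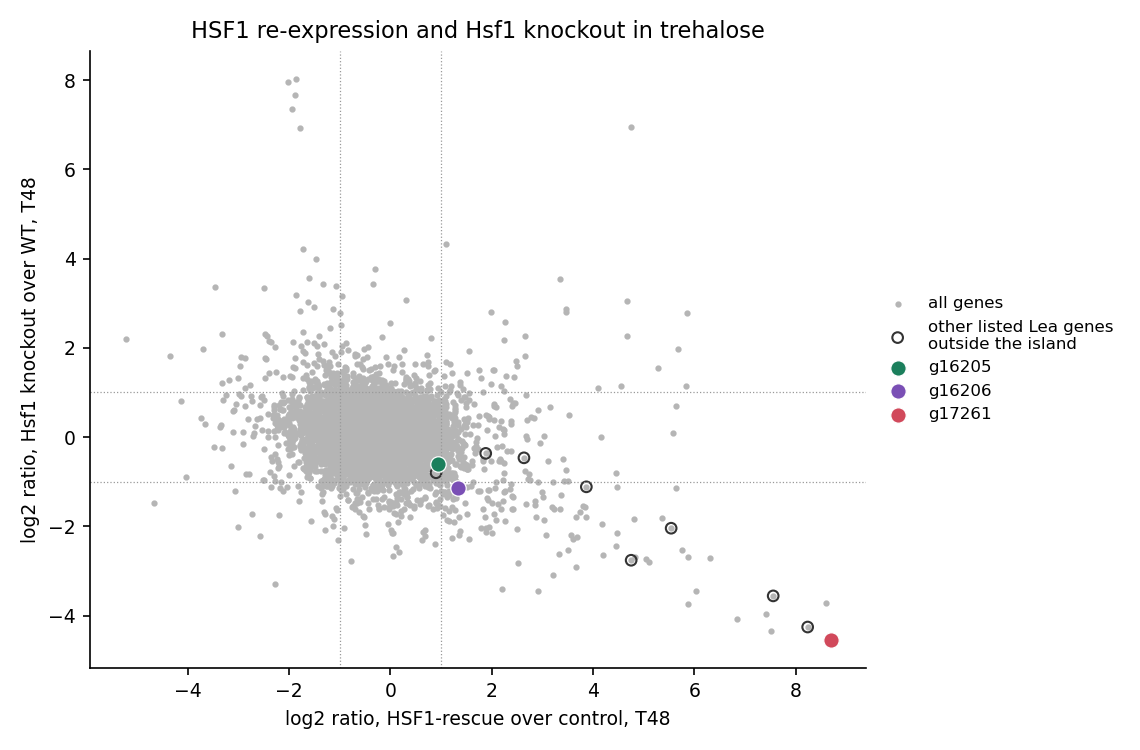
Log2 ratio of mean TPM + 1 at T48 for HSF1-rescue over control cells (x axis) and Hsf1 knockout over WT cells (y axis), 1 point per gene for 8245 genes. Dotted lines mark 2-fold, coloured points are members and open circles the other listed Lea genes outside the island. g17261 is at the far lower right, at 8.69 and -4.54, and g16205 lies inside the 2-fold lines on both axes.

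HSF1-rescue cells were also set against WT cells, since both have HSF1. At T0, 1 of 3 members was at least 2-fold higher in HSF1-rescue cells (6.62% of all genes), and at T48 also 1 of 3 (4.54%). In both cases it was g17261, which was 9.31-fold higher at T0 and 8.46-fold higher at T48, so that WT cells at T48 had 11.8% of the level of HSF1-rescue cells. g16205 was at 1.04 times the WT level at T0 and 1.22 times at T48, and g16206 at 1.33 and 1.14 times. After scaling, the log2 ratio of g16205 at T0 turned to -0.14, against 0.06 before it. The levels of g16205 and g16206 in HSF1-rescue cells were thus near those of WT cells, and the level of g17261 was above them at both times. How much HSF1 the HSF1-rescue cells held relative to WT cells was not measured in these data. The g7775 locus that carries Hsf1 in HSF1-rescue cells is not its own. For the differing profiles of HSF1-rescue and WT cells, the paper proposes HSF1 being expressed at T0 in the former as the probable reason. Whether that holds for g17261 was not tested.

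**Figure D4:**
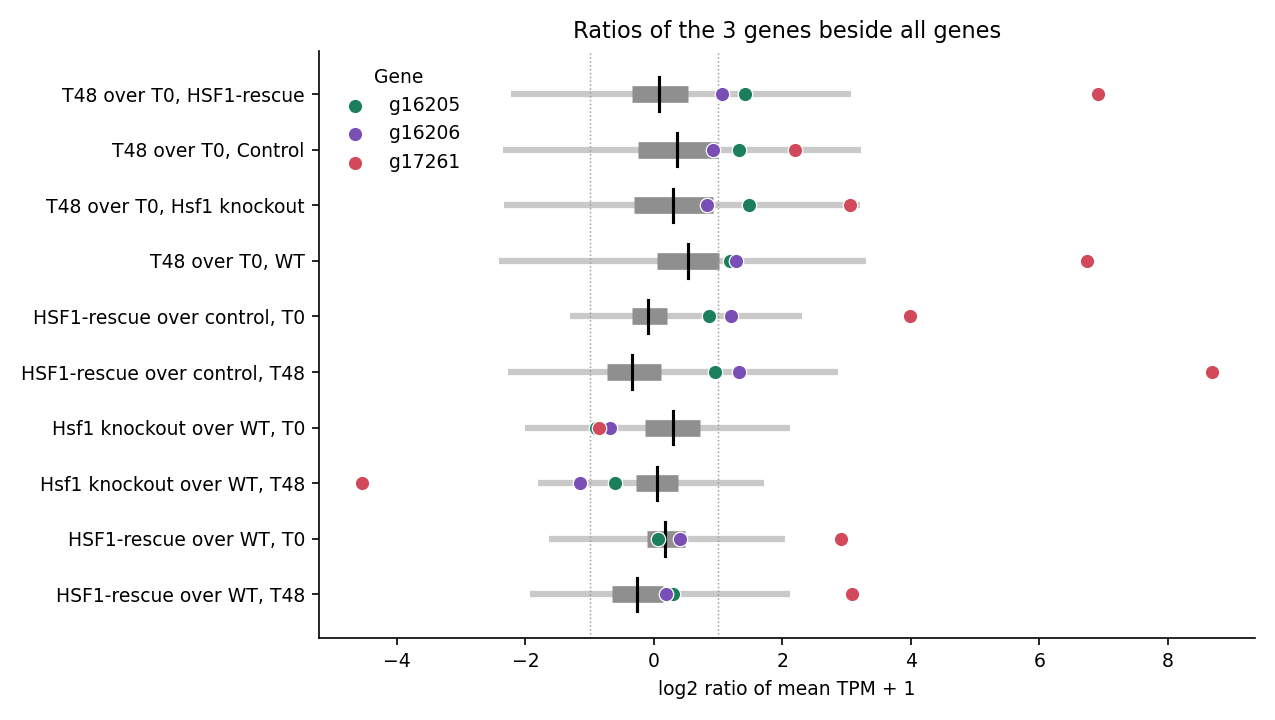
Log2 ratios of mean TPM + 1 for the members (coloured points) in each comparison, named at the left. Light grey bars cover the 1st to 99th percentile of all genes, dark bars the middle 50%, black ticks the median, and dotted lines mark 2-fold. g17261 is outside the light bar in 7 of 10 comparisons, and g16205 and g16206 are inside it in all 10.

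The genes next to g17261 were examined because all 7 of the run are listed Lea genes on the plus strand within 10.8 kb. In HSF1-rescue cells at T48 their levels were 633.8 TPM for g17255, 67.4 TPM for g17256, 82.6 TPM for g17257, 33.5 TPM for g17258, 886.9 TPM for g17259 and 13.6 TPM for g17260. In control cells at T48 the same 6 genes had between 0 and 3.73 TPM, and 4 of them were listed at 0 in HSF1-rescue or WT cells at T0. g17261 was thus the most abundant gene of the run. All 7 were at least 2-fold higher in HSF1-rescue than in control cells at T48, beside 5.83% of all genes. Their median log2 ratio was 5.54, beside -0.34 for all genes. However, g17256, g17257, g17258 and g17260 reached the minimum of 1 TPM here only in HSF1-rescue cells, where they are higher. In Hsf1 knockout against WT cells at T48, g17261, g17255 and g17259 had log2 ratios of -4.54, -4.26 and -3.56. g17257, g17258 and g17260 were also at least 2-fold lower, but they reached the minimum of 1 TPM only in WT cells, where they are higher. g17256 did not reach it, with 0.366 TPM in Hsf1 knockout cells against 0.358 TPM in WT cells. For g17259, 126.4 TPM were measured in WT cells at T48, 14.3% of its level in HSF1-rescue cells.

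The run had sharp ends. The gene before it, g17254, had at most 0.034 TPM in any group and the gene after it, g17262, at most 0.146 TPM. Of the 5 genes on either side, none exceeded 8.36 TPM in any group. Summed, the 7 genes had 5910 TPM in HSF1-rescue cells against 15.8 TPM in control cells at T48, and 33.2 TPM in Hsf1 knockout cells against 690.7 TPM in WT cells. g17261 alone was the larger part of each of these sums. These short genes may share reads, which the counting dropped, so that the split between them is uncertain.

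The neighbours of g16205 and g16206 were abundant in every group, and their ratios were smaller than those of the run of g17261. g16204, on the same strand and 2.9 kb from g16205, was the most abundant of the run, with 55001 TPM in HSF1-rescue cells against 14911 TPM in control cells at T48. g16207 had 9150 TPM against 1470 TPM, and g16208 had 7526 TPM against 4023 TPM. The log2 ratios of the 5 genes in this comparison ran between 0.90 for g16208 and 2.64 for g16207. In Hsf1 knockout cells at T48, g16204 had 16686 TPM against 21494 TPM in WT cells. There 1 of the 5 genes, g16206, was at least 2-fold lower, beside 4.84% of all genes. Past g16208 the level dropped, and g16209 was listed at 0 TPM in all 8 groups. The 5 genes of this run made up 9.59% of all TPM in HSF1-rescue cells at T48 against 3.18% in control cells, and 3.39% in Hsf1 knockout cells against 5.09% in WT cells.

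**Figure D5:**
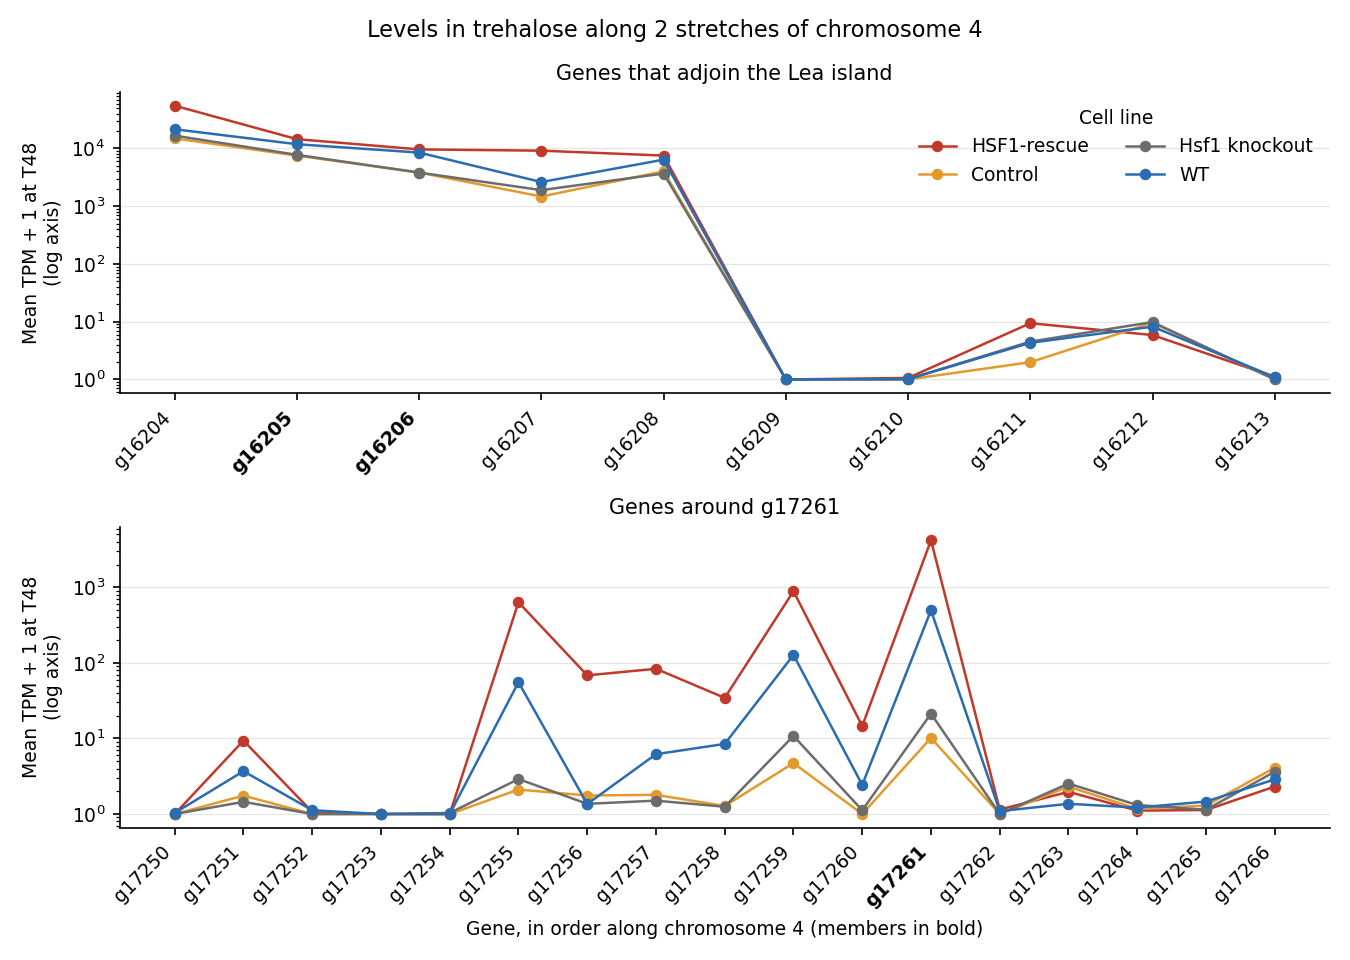
Mean TPM + 1 at T48 (log axis) of genes in their order along chromosome 4, for the run next to the Lea island (top) and the run that ends in g17261 (bottom), with the following or flanking 5 genes. Colours are the 4 lines and members are in bold. The lines lie closer together over g16204 to g16208 than over g17255 to g17261, and no flanking gene exceeds 8.86 TPM at T48.

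By the likeness of log2(TPM + 1) over the 8 group means, the gene most like g17261 among 6423 genes with at least 10 TPM in some group was g17259, with a Pearson's r of 0.996. The next 3 were g17497 (r = 0.994), g17485 (r = 0.987) and g17481 (r = 0.984), which have a thioredoxin domain, are on the study's Trx list and lie on chromosome 4 as well. The fifth, g9817 on chromosome 3 (r = 0.981), carries a domain of AMP-dependent synthetases and ligases. In HSF1-rescue cells at T48, g17497 had 189.6 TPM against 2.51 TPM in control cells, and g17485 had 273.2 TPM against 0.607 TPM. An r of at least 0.95 was reached by 29 genes, g16206 among them (r = 0.960), while g16205 had an r of 0.897. These values describe 8 means of 4 lines at 2 times and carry no p.

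The listed Lea genes inside the island covered a wide range. Of the 15, 12 were at least 2-fold higher in HSF1-rescue than in control cells at T48, beside 5.83% of all genes. The median log2 ratio of the 15 was 2.52, with values between 0.36 and 6.85. For the 9 other listed genes outside the island it was 8 of 9, with a median of 4.75. Of those, g17256, g17257, g17258 and g17260 reached the minimum only in HSF1-rescue cells, where they are higher. Of the 15 island genes, 13 reached 1 TPM in control cells at T0 or T48. The rest of the 15 likewise reached the minimum only in HSF1-rescue cells. In Hsf1 knockout against WT cells at T48, 7 of the 15 were at least 2-fold lower, beside 4.84% of all genes. The median of the 15 was -0.94. In Hsf1 knockout cells, 14 of the 15 reached 1 TPM at T0 or T48, and the remaining gene reached the minimum only in WT cells. g17261 was thus beyond the range of the listed genes of the island in both comparisons, and g16205 and g16206 were inside it.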

How the data were processed

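Poly(A) RNA of 24 libraries was sequenced as paired-end reads. Per the study's methods, the authors aligned reads to assembly Pv_5.2 with Hisat2, sorted them (SAMtools 1.9 in the submitters' processing notes), marked duplicates with Picard and counted them per gene with HTSeq 0.6.0, leaving out reads with several possible genes or places. Whether counting used strand is not given in the sources used here. The authors converted counts to TPM and deposited the mean of each group, with each gene repeated for each predicted HSE over 25248 lines. Each gene was taken once (sums of 998471 to 999131 TPM). TPM keeps no depth. The deposited FIMO score and p-value belong to each HSE match in the 1000 bp around the start site (limit 0.0001), and distances assume that site at the window's centre. Cluster columns hold the authors' own result and were not used.

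Group means carry no spread, so no test, SD or n is given. Ratios were log2 of TPM + 1 (Python 3.11.15, pandas 2.3.3), tested on simulated data. Coordinates are 1-based. Members and lists were chosen with earlier results of these data known. Named genes are every member, the study's other listed Lea genes outside the island, 5 genes on each side of each run, Hsf1, g7775 and the 5 genes most like g17261. g2545 was named after its values were seen. Alternatives were other pseudocounts and minimums, 2 other scalings, other member sets and stricter HSE limits. HSF1-rescue against WT cells was added after the data were seen.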

Additional observations from a re-analysis of the deposited data

How the results depend on the processing

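No paired analysis was possible because the deposited values are group means, and for the same reason no replicate could be left out. The 72 alternative log2 ratios of single members (pseudocount of 0.1 and both scalings, 8 comparisons) kept their direction, and 61 kept their side of 2-fold. Without g16204 to g16208 only g17261 is left, and the count was 1 in all 4 responses to trehalose and in HSF1-rescue over control cells at T0 and at T48, and 1 in Hsf1 knockout over WT cells at T48. With the study's 9 other genes added, counts were taken over the genes above the minimum. At least 2-fold higher at T48 were 12 of 12 in HSF1-rescue cells and 5 of 8 in control cells. In Hsf1 knockout cells it was 6 of 8 and in WT cells 10 of 11. In HSF1-rescue over control cells, 7 of 8 were higher at T0 and 10 of 12 at T48. In Hsf1 knockout against WT cells, 1 of 7 was lower at T0 and 7 of 11 at T48. Some of these genes reached the minimum only in the group where they are higher. The shares of all genes are those given above. After median-of-ratios scaling, 1 member was at least 2-fold higher at T48 in control cells and 1 in WT cells, and 3 were lower in Hsf1 knockout than in WT cells at T0. The last count was 1 with a pseudocount of 0.1 and 1 on the scale without the 10 most abundant genes and the members. At a match p under 1e-05, 0 members had an HSE. Values near 1 TPM limit the low end of every ratio of g17261.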

Other observations

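Among the genes beside the run of g17261, g17251 is not on the Lea list and lies 7.4 kb before g17255. It had 8.36 TPM in HSF1-rescue cells at T48 and 0.443 TPM at T0, 0.75 TPM at T48 and 0 TPM at T0 in control cells, 0.450 TPM at T48 and 0.322 TPM at T0 in Hsf1 knockout cells, and 2.69 TPM at T48 and 0.182 TPM at T0 in WT cells. At T48 both lines with HSF1 were above both lines without it.

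The other lists of the study gave these values for HSF1-rescue over control cells at T48, where 5.83% of all genes were at least 2-fold higher. Of the 21 Trx genes above the minimum, which encode thioredoxin-like proteins, 16 were at least 2-fold higher, with a median log2 ratio of 3.51. Of the 14 Pimt genes, which encode protein-L-isoaspartate methyltransferases, 7 were, with a median of 1.02. Of the 13 Lil genes 8 were, and their median was 1.08. For trehalose metabolism it was 2 of 4 genes, and the median was 1.44. In control cells, 14 Trx genes and 12 Lil genes reached 1 TPM at T0 or T48. The 21 Trx and 13 Lil genes therefore include some that reached the minimum only in HSF1-rescue cells, where they are higher. In Hsf1 knockout against WT cells at T48, 15 of 19 Trx genes, 4 of 14 Pimt genes, 2 of 13 Lil genes and 1 of 4 genes of trehalose metabolism were at least 2-fold lower. Of all genes, 4.84% were at least 2-fold lower there. In Hsf1 knockout cells, 16 Trx genes reached 1 TPM at T0 or T48. Some of the 19 therefore reached the minimum only in WT cells, where they are higher. The study named these lists, and they are not independent of these samples.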
